A study of Mus musculus with 30 samples.

Results

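Keratin and collagen transcripts were examined in RNA libraries of sorted natural killer (NK) cells, a sort in which neither family of skin structural genes defines the cells. The members were the rows of the normalized expression table with a keratin symbol (Krt and a number) or a collagen chain symbol (Col, a number, a and a number) and a value of 10 or more in at least 3 of 30 libraries. Of 95 such symbols 57 met this rule, 16 of 51 keratins and 41 of 44 collagens. The threshold looks at level alone and at no group. A member that reached it only in the skin libraries had to differ from the circulating ones, so counts over the members are given as a description and support nothing. The last members inside had third-highest values of 11.1 (Krt27), 11.6 (Col9a1) and 11.7 (Krt75), and the first symbols outside had 8.79 (Krt18), 8.67 (Krt1) and 8.64 (Krt80).

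The libraries came from 2 skin graft models with 3 libraries in each of 10 groups. In the B6 model the recipients were C57BL/6 mice of genotype NKp46iCre/iCre.RosamTmG/mTmG that received m157tgB2m-/- skin, and cells were sorted at day 20. In the F1 model the recipients were C57BL/6xBalb/c mice of genotype NKp46+/iCre.Rosa+/mTmG that received m157tgB2m+/- skin, and cells were sorted at day 10. In each model CD49b+ NKp46-GFP+ cells came from blood, spleen and donor skin (the graft), and CD49a+ NKp46-GFP+ cells came from the graft and from the recipient's own skin. All recipients carried the NKp46-driven Cre and the mTmG reporter. Strain, reporter dose, graft genotype and day changed together, so a difference between the models cannot be assigned to any of them. The labels do not say whether libraries of the same number share an animal, or whether replicates came from separate animals, and the p-values measure the spread between these libraries only.

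Keratins are the intermediate filament proteins of epithelia, built from pairs of a type I and a type II chain. In mouse skin Krt5 and Krt14 mark the basal layer of the epidermis, Krt1 and Krt10 the layers above it, and Krt6a, Krt16 and Krt17 the hair follicle and injured or fast-dividing epidermis. Collagens are secreted triple-helical proteins laid down in the dermis mostly by fibroblasts, where type I and type III form the fibrils and type IV the basement membranes. Resting NK cells are not known for making either family.

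NK cell and leukocyte transcripts themselves were lower in the skin libraries by the mean of their log2(signal + 1) values. These means were turned back to a percent of the circulating mean. For 20 pan-leukocyte genes this level was 90.1 to 109 percent in the 12 blood and spleen libraries and 9.14 to 87.4 percent in the 18 from skin. For 16 NK genes it was 93.3 to 106 percent and 2.46 to 68.8 percent. Plain sums overlapped. The summed NK signal of F1 graft CD49b+ 1 was 18333.5, within the circulating range of 16602.6 to 20685.5. The summed pan-leukocyte signal of B6 graft CD49b+ 2 was 13624.6, where F1 spleen 1 had 13218.4. Of the 16 NK genes, 8 to 16 had a signal of 10 or more in a skin library. The 6 libraries under 25 percent of the circulating pan-leukocyte level were B6 graft CD49a+ 1 (9.14 percent) and 3 (16.7), B6 recipient skin 1 (17.1) and 3 (13.0), and F1 recipient skin 2 (20.4) and 3 (10.0). Satellite-like predicted genes made up 78.9 to 85.1 percent of all signal for blood and spleen and 18.6 to 78.3 percent for skin, and shares below leave them out. In such bulk libraries, fewer cells of a type and less RNA per cell cannot be told apart.

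Keratin genes resemble each other closely enough that reads can fit several of them, which bears on which keratin a signal belongs to. The 16 keratins lie in the type I cluster on chromosome 11 (8 members) and the type II cluster on chromosome 15 (8 members) of GRCm38. By 31-base stretches of the GENCODE M21 transcripts, 51.3 percent of Krt6a was found in other genes (45.9 percent in Krt6b), 51.9 percent of Krt16, 49.97 percent of Krt86 (42.5 percent in Krt81), 28.2 percent of Krt14, 15.8 percent of Krt17 and 12.8 percent of Krt5, against 0.796 percent of Krt26 and 0.252 percent of Krt79. The set below shows a 90-base coding stretch of 3 type I keratins that stand side by side on the minus strand, with bases that differ from Krt14 in capitals (4 in Krt16 and 1 in Krt17).
Krt14: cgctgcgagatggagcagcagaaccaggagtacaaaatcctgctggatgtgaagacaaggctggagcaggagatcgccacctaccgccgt
Krt16: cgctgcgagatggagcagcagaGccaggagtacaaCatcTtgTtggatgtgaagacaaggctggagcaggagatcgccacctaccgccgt
Krt17: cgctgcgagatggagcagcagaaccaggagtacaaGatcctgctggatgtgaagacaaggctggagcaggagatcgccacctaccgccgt
These are coding bases 1180 to 1269 of Krt14 (chr11:100203162-100207548), 1156 to 1245 of Krt16 (chr11:100246091-100248902) and 1069 to 1158 of Krt17 (chr11:100256217-100261029), and all are exonic. Levels of Krt6a, Krt16, Krt86, Krt14, Krt17 and Krt5 are therefore uncertain as between these genes and their near copies, while Krt26 and Krt79 share little.

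As shares of the signal outside the satellite-like genes, the 41 collagens took 0.0139 to 0.0841 percent of a blood or spleen library and 0.0353 to 0.468 percent of a skin library. The 16 keratins took 0.00133 to 0.304 percent and 0.00443 to 0.274 percent. The circulating keratin maximum was F1 blood 3 and came from Krt7, while the skin maximum for both families was B6 graft CD49a+ 1. Counted by members with a signal of 10 or more, circulating libraries had 0 to 3 keratins and 2 to 9 collagens, and skin libraries had 1 to 11 keratins and 5 to 31 collagens. Detection also differed over all genes, with 8129 to 8620 at 10 or more in circulating and 8402 to 11300 in skin libraries. B6 graft CD49a+ 3 had the most keratins (11) and B6 graft CD49b+ 1 the most collagens (31). B6 graft CD49a+ 2 and B6 recipient skin 2 had 1 keratin each, with 10 and 5 collagens, and F1 graft CD49b+ 1 and 2 and F1 graft CD49a+ 1 and 3 had 3 keratins each, which is also within the circulating range. The libraries with 1 keratin had pan-leukocyte levels of 73.0 and 74.4 percent, but B6 graft CD49b+ 2, at 87.4 percent, had 8 keratins and 11 collagens.

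**Figure D1:**
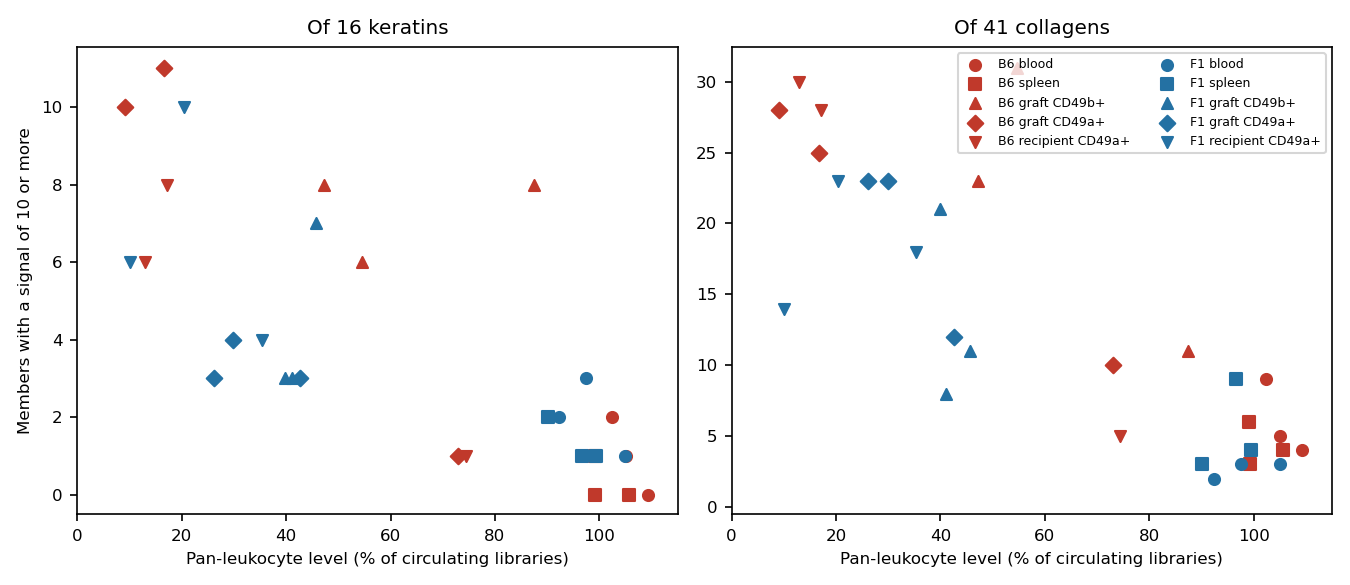
Number of keratins (left, of 16) and collagens (right, of 41) with a signal of 10 or more in each of 30 libraries, against the pan-leukocyte level. That level is the mean log2(signal + 1) of 20 genes, turned back to a percent of the circulating mean. Each point is a library, with colour for the model and shape for the group, and skin libraries range from 1 to 11 keratins and from 5 to 31 collagens.

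Tests compared each skin group with the spleen of its model on log2 of the signal plus 1 (limma, adjusted over 16045 rows that met the same threshold, called at an adjusted p under 0.05). In the B6 graft CD49b+ comparison 6 members were higher (2 keratins and 4 collagens), and 0 were lower, where 3.7 percent of all rows were called higher and 0.368 percent lower. In the B6 graft CD49a+ comparison 16 were higher (6 and 10) and 0 lower, beside 12.5 and 3.77 percent of all rows. In the B6 recipient skin comparison 15 were higher (2 and 13) and 0 lower, beside 17.9 and 11 percent of all rows, 28.8 percent in either direction.

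The F1 counts were of like size. In F1 graft CD49b+ cells 8 members were higher (1 keratin and 7 collagens) and 0 lower, beside 10.6 and 1.61 percent of all rows. In F1 graft CD49a+ cells 9 collagens were higher, beside 18.5 percent of all rows, and 1 was lower, beside 4.18 percent, so that 10 members and 22.7 percent of all rows were called. In F1 recipient skin 12 members were higher (1 and 11) and 0 lower, beside 11.3 and 4.44 percent of all rows. The median log2 difference over the 57 members was 2.37, 2.82 and 2.67 in the B6 comparisons and 1.54, 2.11 and 2.40 in F1. The medians over all rows were 0.33, 0.44, 0.40, 0.26, 0.39 and 0.35. Members that met the rule only through skin libraries raise the member medians, which therefore describe the members and support nothing. Members also varied more between libraries of a group: their median within-group SD on the log2 scale over skin groups was 1.99 for keratins and 1.80 for collagens, and 1.24 for all rows.

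**Figure D2:**
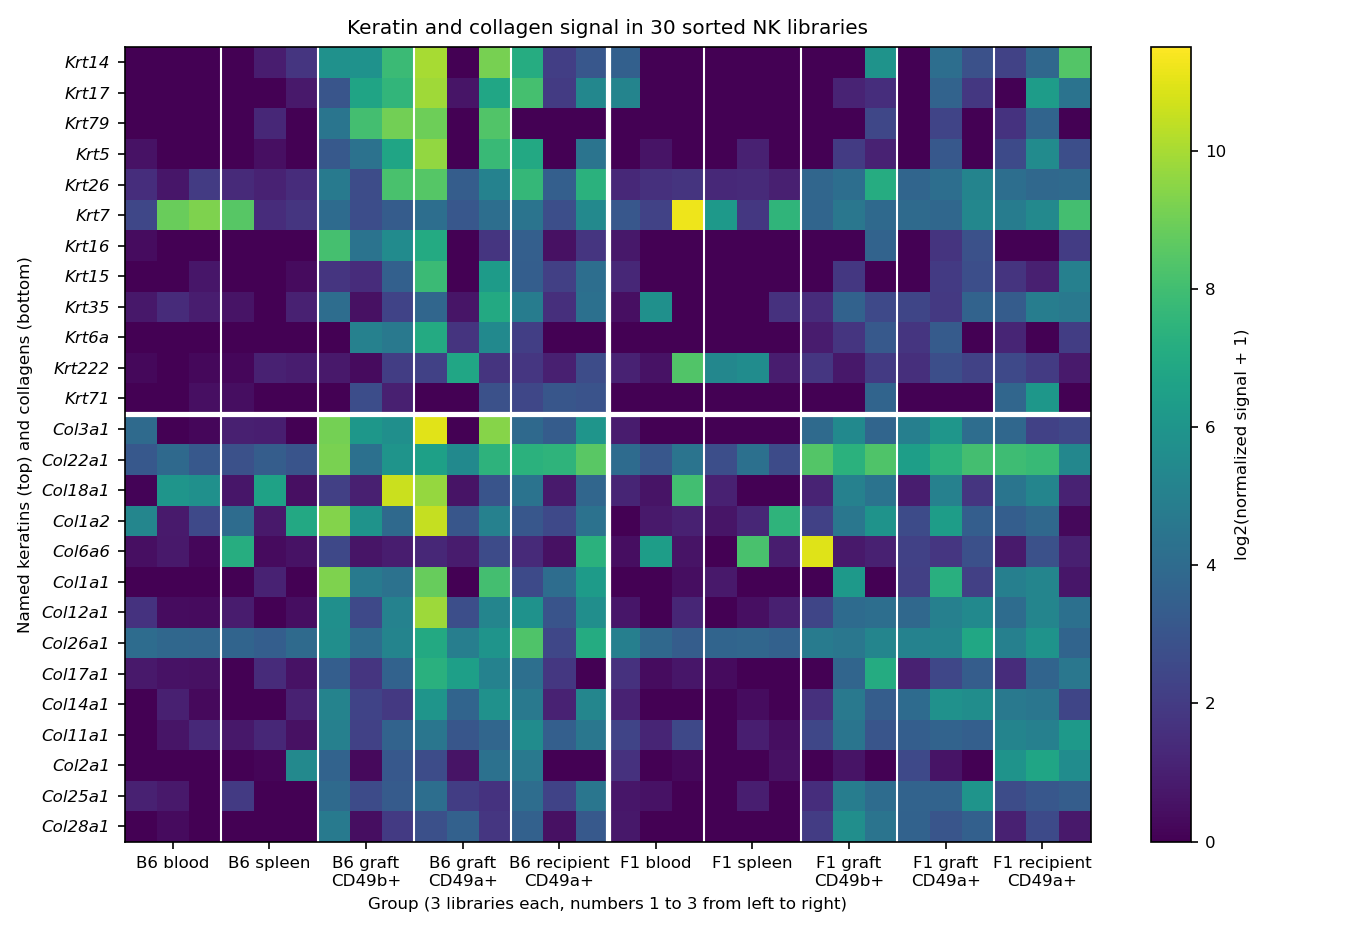
Signal of the 26 named members (12 keratins above the white line and 14 collagens below) in 30 libraries, as log2 of the normalized signal plus 1. Columns are libraries 1 to 3 of each group, and Krt5, Krt14, Krt17 and Krt79 are all at 100 or more in B6 graft CD49b+ 3 and B6 graft CD49a+ 1 and 3, while Col22a1 is above the circulating columns in 17 of 18 skin columns.

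Of the basal keratins, Krt14 was listed at 0 in 9 circulating libraries and reached 10.5 in F1 blood 1. It was at 56.2, 57.4 and 227 in B6 graft CD49b+ libraries 1 to 3, at 1004, 0 and 564 in B6 graft CD49a+, and at 139, 3.41 and 7.68 in B6 recipient skin. In F1 it was at 0, 0 and 58.2 in graft CD49b+, 0, 16.6 and 6.13 in graft CD49a+, and 3.88, 13.2 and 338 in recipient skin. All 3 B6 graft CD49b+ libraries lay above every circulating library, whereas B6 graft CD49a+ 2 lay among them. The B6 graft differences of 5.61 ± 1.93 (CD49b+) and 5.47 ± 1.93 (CD49a+, log2 ± SE, n = 3) had adjusted p of 0.091 and 0.0512 in limma and were not called.

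Krt5, the type II partner of Krt14, was highest in B6 graft CD49a+ 1 and 3, as was Krt14. Its signal was 8.22, 19.4 and 107 in B6 graft CD49b+, 803, 0 and 221 in B6 graft CD49a+, and 123, 0 and 20.4 in B6 recipient skin, with at most 1.09 in circulating libraries. It was called in B6 graft CD49a+ cells at 5.66 ± 1.65 (adjusted p = 0.0219). Krt15, a basal and follicle bulge keratin, was at 228, 0 and 78.0 in the same group and was called at 4.60 ± 1.29 (adjusted p = 0.0182). Both calls were lost on leaving out graft library 1 (adjusted p of 0.171 for Krt5 and 0.152 for Krt15), graft library 3 (0.121 and 0.107) or spleen library 1, 2 or 3 (0.0503 to 0.0661 for Krt5 and 0.0508 to 0.059 for Krt15). In F1, Krt5 was at 0, 2.96 and 1.16 in graft CD49b+, 0, 8.08 and 0 in graft CD49a+, and 4.995, 46.3 and 5.70 in recipient skin, and neither Krt5 nor Krt15 was called. The F1 libraries that were high for Krt14 (338 in recipient skin 3 and 58.2 in graft CD49b+ 3) held Krt5 at 5.70 and 1.16.

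The keratins of the layers above the basal layer stayed low. Of 6 suprabasal keratins 0 met the rule, with highest values in any library of 10.4 for Krt1, 20.0 for Krt10 and 5.76 for Krt2. In B6 graft CD49a+ 1, where Krt14 was at 1004, Krt1 and Krt10 were listed at 0.

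Of the keratins of follicle and activated epidermis, Krt17 was at 7.25, 105 and 191 in B6 graft CD49b+, 925, 0.580 and 110 in B6 graft CD49a+, and 279, 2.96 and 39.0 in B6 recipient skin. Circulating libraries were at most 0.699 except F1 blood 1 at 35.0. It was called in B6 graft CD49a+ (5.51 ± 1.80, adjusted p = 0.0376) and B6 recipient skin (4.89 ± 1.80, adjusted p = 0.0428). Each call was lost without skin library 1 (adjusted p of 0.25 and 0.235), skin library 3 (0.138 and 0.107) or any spleen library (0.0764 to 0.0993). Krt16, listed at 0 in all B6 spleen libraries, was at 276, 20.1 and 45.5 in B6 graft CD49b+, with no overlap, and was called there (adjusted p = 0.0113). That call was lost without graft library 1 (0.102) or 3 (0.0522) or spleen library 1 (0.0532) or 3 (0.0511). In B6 graft CD49a+ Krt16 was at 128, 0 and 2.44 and was not called (adjusted p = 0.11).

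Krt6a was listed at 0 in all 12 circulating libraries. It was at 129, 2.33 and 43.1 in B6 graft CD49a+ and was called there (adjusted p = 0.00882), a call lost without graft library 1 (0.0769). In B6 graft CD49b+ it was at 0, 31.9 and 23.9, and elsewhere it was at most 8.94. Its near copy Krt6b fell under the rule, with 213 in B6 recipient skin 1 and at most 4.07 in the other libraries.

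Krt79, a type II keratin known in mouse from the canal of the hair follicle and the sebaceous gland duct (chr15:101929332-101940324, minus strand), was at 21.1 or more in 5 of the 6 B6 graft libraries. Its signal was 21.1, 265 and 534 in B6 graft CD49b+ and 503, 0 and 327 in B6 graft CD49a+, and it was listed at 0 in all 3 B6 recipient skin libraries and in 11 of 12 circulating libraries, with 1.45 in B6 spleen 2. In F1 it was at 0, 0 and 4.53 in graft CD49b+, 0, 4.21 and 0 in graft CD49a+, and 2.18, 12.03 and 0 in recipient skin. The B6 graft CD49b+ libraries did not overlap with spleen, at a mean of 273 ± 257 (SD, n = 3), and the difference of 6.76 ± 1.49 was called (adjusted p = 0.0128). It was called in B6 graft CD49a+ at 5.35 ± 1.49 (adjusted p = 0.017), although library 2 of that group was at 0.

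The calls for Krt79 depended on single libraries. The CD49b+ call was lost without graft library 3 (adjusted p = 0.091), spleen library 1 (0.0636) or spleen library 3 (0.0643), and the CD49a+ call without graft library 1 (0.133) or 3 (0.122) or spleen library 1 (0.0613) or 3 (0.0612). Against recipient skin, a group at 0, graft CD49a+ cells had an adjusted p of 0.0932 and were not called. B6 recipient skin 1 and 3 held Krt17 at 279 and 39.0, and Krt5 at 123 and 20.4, with Krt79 at 0.

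Krt26, a type I keratin of the inner root sheath of the hair follicle (chr11:99328550-99337966, minus strand), had another distribution. All 18 skin libraries, at 5.33 to 353 with a median of 16.9, lay above all 12 circulating libraries, which reached 2.97. It was at 25.9, 5.33 and 291 in B6 graft CD49b+, 353, 9.45 and 33.7 in B6 graft CD49a+, and 202, 10.2 and 160 in B6 recipient skin. In F1 it was at 12.9, 17.0 and 137 in graft CD49b+, 12.4, 16.6 and 35.9 in graft CD49a+, and 16.8, 13.9 and 14.6 in recipient skin. B6 graft CD49a+ 2, F1 graft CD49b+ 1 and F1 graft CD49a+ 1, where Krt14, Krt5 and Krt79 were all at 0, held Krt26 at 9.45, 12.9 and 12.4.

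Krt26 was called in B6 graft CD49a+ (4.35 ± 1.18, adjusted p = 0.0145), B6 recipient skin (4.85 ± 1.18, adjusted p = 0.00443) and F1 graft CD49b+ (3.79 ± 1.18, adjusted p = 0.035). The B6 recipient skin call held without any 1 of its 6 libraries. The B6 graft CD49a+ call was lost without graft library 1 (0.128), and the F1 call without graft library 2 (0.0677) or 3 (0.179) or any spleen library (0.0764 to 0.0957). Of the other inner root sheath keratins, the type I chains Krt25, Krt27 and Krt28 reached 3.30, 14.4 and 8.40. The type II chains Krt72 and Krt73 reached 17.0 and 24.9, and Krt74, a transcribed pseudogene in the mouse annotation, reached 34.2. These maxima of Krt72, Krt73 and Krt74 were in B6 recipient skin libraries. Krt71, another type II chain of the inner root sheath, was at 13.0, 66.6 and 0 in F1 recipient skin. It was called there (limma, adjusted p = 0.0439), a call lost without library 1 (0.132) or 2 (0.304) or any spleen library (0.0975 to 0.104).

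Some keratins had high values in circulating libraries. Krt7, a keratin of simple epithelia, was higher in some blood and spleen libraries than in any skin library. It was at 4.399, 461 and 610 in B6 blood, 363, 1.75 and 2.44 in B6 spleen, 7.69, 3.81 and 2396 in F1 blood and 73.2, 2.59 and 186 in F1 spleen. Skin libraries were at 5.68 to 269 with a median of 15.9, and it was not called in any comparison. Krt222, a keratin-like gene, reached 331 in F1 blood 3 and 112 in B6 graft CD49a+ 2, and was likewise not called. Krt35, of the hair cortex, was at 53.9 or less in circulating libraries and reached 126 in B6 graft CD49a+ 3 without a call. Unlike these, Krt86, another hair keratin, was at most 3.45 in circulating libraries, and in skin it reached 90.1 in F1 graft CD49b+ 1, 84.6 in F1 graft CD49a+ 1 and 66.8 in B6 graft CD49a+ 3. Its near copy Krt81 was at 0, 23.3 and 12.2 in those 3 libraries.

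**Figure D3:**
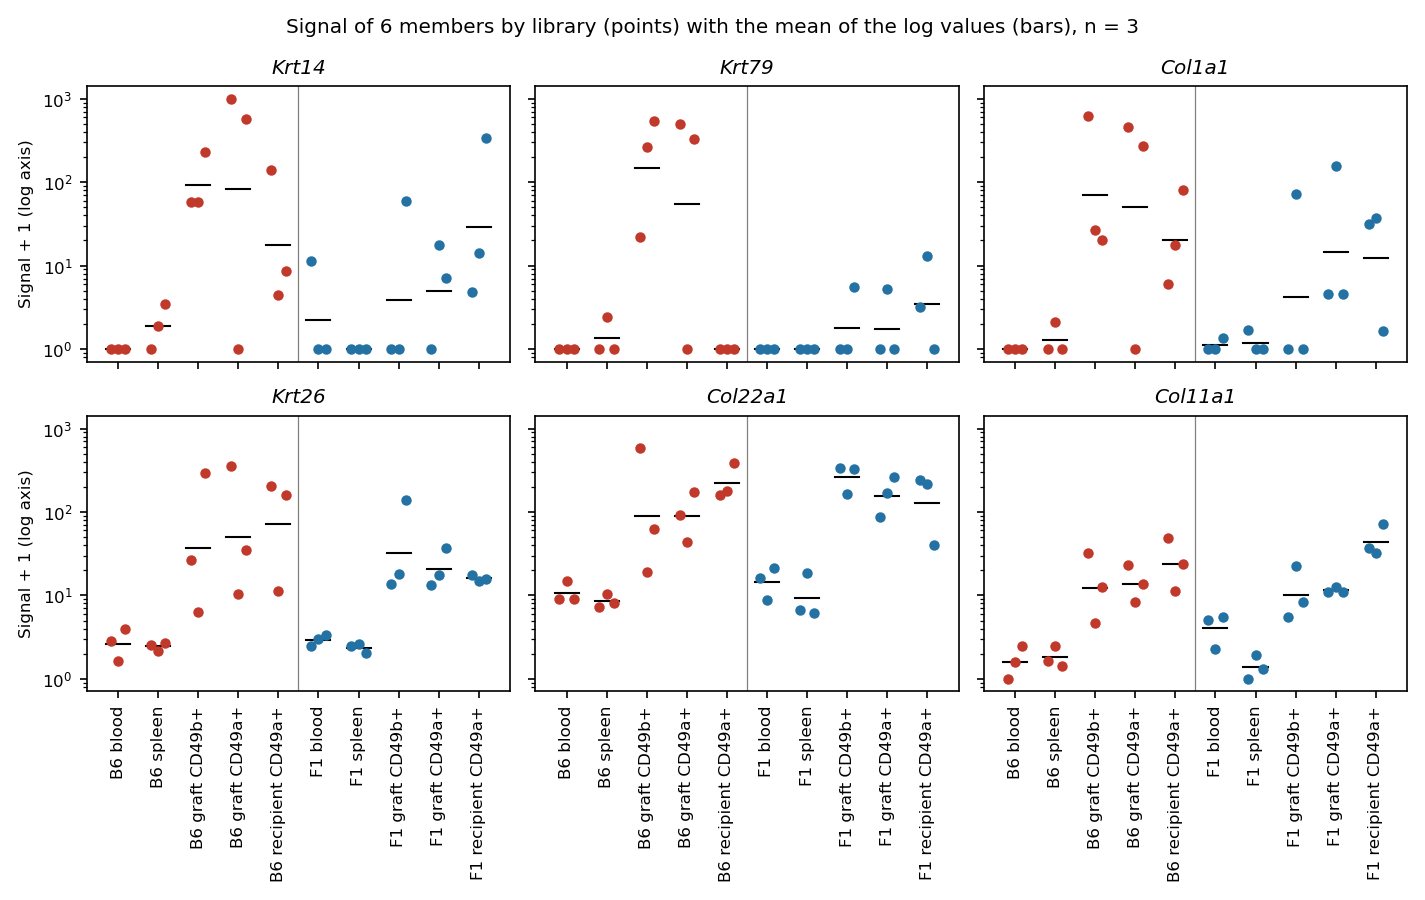
Signal plus 1 on a log axis for 3 keratins and 3 collagens in each library, by group, with bars at the mean of the log values (n = 3). Krt14, Krt79 and Col1a1 run from 1 (a signal of 0) to over 100 within B6 graft CD49a+, while Krt26 lies above all circulating libraries in all 18 skin libraries, Col22a1 in 17 and Col11a1 in 16.

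Of the fibril-forming collagens, Col3a1, the single chain of type III collagen, had the highest value of the family. It was at 539, 67.2 and 51.3 in B6 graft CD49b+, 2039, 0 and 679 in B6 graft CD49a+, and 14.2, 9.15 and 61.9 in B6 recipient skin. In F1 it was at 14.8, 42.8 and 12.6 in graft CD49b+, 29.8, 64.9 and 16.1 in graft CD49a+, and 13.4, 3.73 and 4.502 in recipient skin. Circulating libraries were at most 0.991 except B6 blood 1 at 14.8, and B6 graft CD49a+ 2 was the skin library at 0.

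Col3a1 was called in B6 graft CD49b+ (6.30 ± 1.61, adjusted p = 0.0274), B6 graft CD49a+ (6.14 ± 1.61, adjusted p = 0.0125) and F1 graft CD49a+, whose spleen group was at 0 (adjusted p = 0.0259). The first call was lost without graft library 1 (0.194) or 3 (0.0744) or any spleen library (0.0672 to 0.111), and the second without graft library 1 (0.121) or 3 (0.0953) or spleen library 3 (0.0516). The F1 call was lost without graft library 2 (0.0872) or 3 (0.0518) or any spleen library (0.0622 to 0.0646).

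The chains of type I collagen, the main fibril of dermis, were split. Col1a1 was at 628, 25.4 and 19.0 in B6 graft CD49b+, 456, 0 and 268 in B6 graft CD49a+, and 5.07, 16.4 and 79.4 in B6 recipient skin, and was at most 1.13 in circulating libraries. It was called in B6 graft CD49a+ (5.27 ± 1.84, adjusted p = 0.0494), a call lost without graft library 1 (0.254) or 3 (0.221) or any spleen library (0.0837 to 0.124). Col1a2, whose product joins that of Col1a1 in the same triple helix, reached 1456 in B6 graft CD49a+ 1 and 653 in B6 graft CD49b+ 1. It also stood at 176 in F1 spleen 3, 120 in B6 spleen 3 and 37.5 in B6 blood 1, and was not called in any comparison.

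The cartilage fibril collagens gave a different picture. Col11a1, the alpha 1 chain of type XI (chr3:114030540-114220718, plus strand), was at 31.01, 3.66 and 11.7 in B6 graft CD49b+, 21.9, 7.40 and 12.8 in B6 graft CD49a+, and 47.5, 10.3 and 22.9 in B6 recipient skin. In F1 it was at 4.53, 21.4 and 7.28 in graft CD49b+, 9.86, 11.51 and 10.1 in graft CD49a+, and 35.6, 31.4 and 71.3 in recipient skin. Circulating libraries reached 4.56, and 16 of 18 skin libraries lay above that.

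Col11a1 was called against spleen in all 6 comparisons, at 2.78, 2.94 and 3.71 with B6 recipients and 2.88, 3.07 and 5.01 with F1 recipients (SE 0.75, adjusted p from 0.000192 to 0.0359). The calls in both recipient skins and in F1 graft CD49a+ held without any 1 library. The B6 graft CD49a+ call was lost without graft library 1 (0.0632) and the F1 graft CD49b+ call without graft library 2 (0.103) or spleen library 1 (0.0649). The B6 graft CD49b+ call was lost without graft library 1 (0.254) or 3 (0.125) or any spleen library (0.0674 to 0.132).

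Col2a1, the type II collagen chain of cartilage (chr15:97975602-98004695, minus strand), was at 58.6, 106 and 47.4 in F1 recipient skin. The other F1 libraries were at most 4.84, so all 3 lay apart from them. It was called there at 5.90 ± 1.27 (adjusted p = 0.00317), and the call held without any 1 library. In B6 it reached 24.4 in recipient skin 1 and 41.5 in spleen 3, and the difference between the models was not called (adjusted p = 0.435). Graft against recipient skin in F1 was not called either (log2 difference of -5.03, adjusted p = 0.143). Col11a2 was the 1 member called lower, in F1 graft CD49a+ (0, 2.05 and 0, against 43.0, 12.2 and 13.7 in spleen, adjusted p = 0.0427), and that call was lost without any of the 6 libraries (0.0518 to 0.145).

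The fibril-associated collagens decorate fibrils without forming them. Col22a1, a member of them known from tissue junctions such as that of muscle and tendon (chr15:71795795-72034227, minus strand), was at 583, 18.1 and 61.5 in B6 graft CD49b+, 91.8, 43.0 and 174 in B6 graft CD49a+, and 161, 178 and 380 in B6 recipient skin. In F1 it was at 337, 163 and 326 in graft CD49b+, 85.0, 168 and 263 in graft CD49a+, and 239, 216 and 39.1 in recipient skin. Circulating libraries were at 5.12 to 20.3, and B6 graft CD49b+ 2 at 18.1 was the 1 skin library within that range.

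Col22a1 was called against spleen in all 6 comparisons, at 3.38, 3.39 and 4.71 with B6 recipients and 4.84, 4.09 and 3.80 with F1 recipients (SE 0.84, adjusted p from 0.000468 to 0.0235). The 3 F1 calls and the B6 recipient skin call held without any 1 library. The B6 graft CD49a+ call was lost without graft library 3 (0.0607) and the B6 graft CD49b+ call without graft library 1 (0.237) or 3 (0.0744) or any spleen library (0.0537 to 0.0936). B6 recipient skin 2, with Krt14 at 3.41 and Krt5 at 0, held Col22a1 at 178. The gene overlaps the antisense gene Gm16308, and whether the counting used strand is not given in the sources used here.

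Col12a1 and Col14a1 are fibril-associated collagens of dermis, and each was called in 5 of the 6 comparisons. Col12a1 was at 4.23 to 909 in skin libraries with a median of 24.4, and all 18 lay above the circulating maximum of 2.26. It was called in B6 graft CD49b+ (4.02), B6 graft CD49a+ (5.50), B6 recipient skin (4.41), F1 graft CD49a+ (4.30) and F1 recipient skin (4.03), with SE 1.14 and adjusted p from 0.00308 to 0.0435. Its highest value was in B6 graft CD49a+ 1, which held 67.4 percent of the summed skin signal of the gene. The calls in B6 graft CD49a+, B6 recipient skin and F1 graft CD49a+ held without any 1 library. The F1 recipient skin call was lost without library 2 (0.0804) or spleen library 1 (0.0667), and the B6 graft CD49b+ call without graft library 1 (0.245) or 3 (0.172) or any spleen library (0.106 to 0.129).

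Col14a1 was at 34.4, 3.92 and 2.80 in B6 graft CD49b+, 62.9, 12.1 and 55.3 in B6 graft CD49a+ and 15.3, 55.9 and 48.2 in F1 graft CD49a+, with at most 1.16 in circulating libraries. Every skin library except B6 recipient skin 2 (1.14) lay above the circulating maximum. The Col14a1 calls in the 2 CD49a+ graft groups held without any 1 library (4.83 ± 1.02 and 5.03 ± 1.02, adjusted p of 0.00349 and 0.0014). It was also called in B6 recipient skin (3.32, adjusted p = 0.018), F1 graft CD49b+ (3.08, 0.047) and F1 recipient skin (3.73, 0.0147), and each of these was lost without at least 2 of the 6 libraries in turn, with adjusted p of 0.0561 to 0.229.

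**Figure D4:**
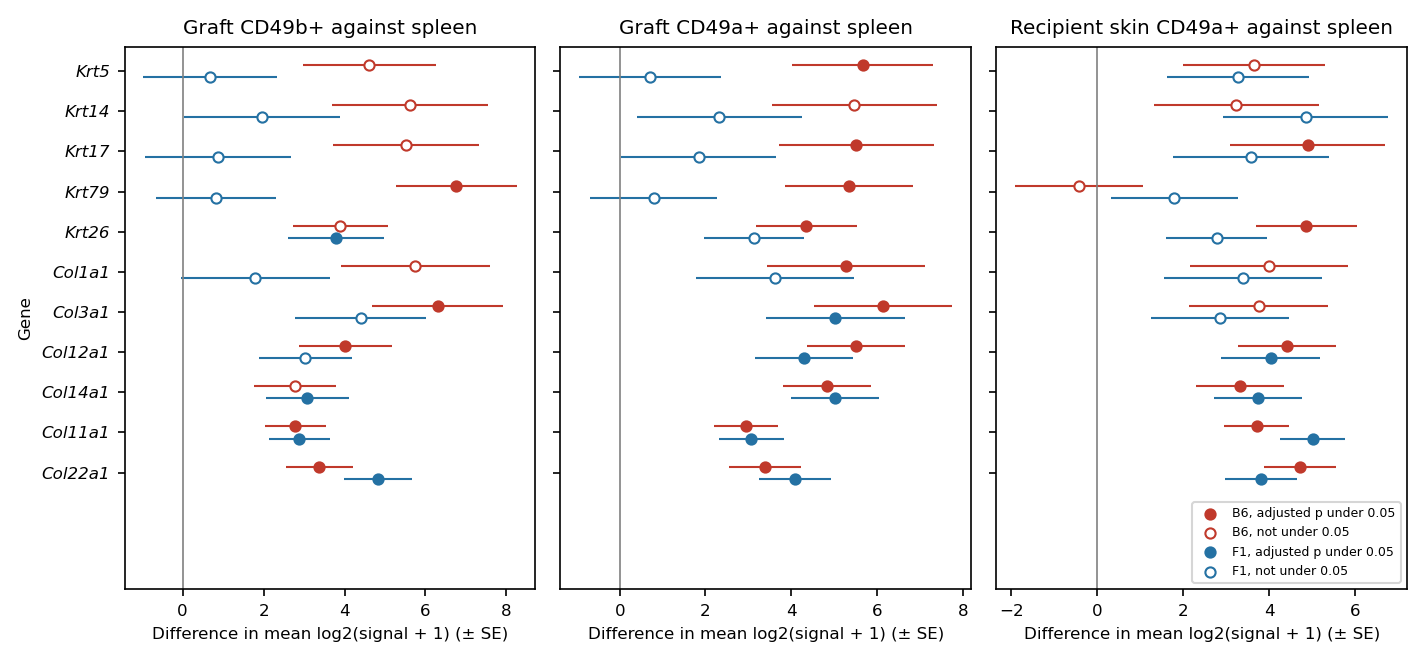
Differences in mean log2 of the signal plus 1 from the spleen of the same model, with SE, for 5 keratins and 6 collagens in the 3 skin groups of B6 and F1 (limma, n = 3 a group). Filled points have an adjusted p under 0.05. Col11a1 and Col22a1 are filled in all 6 comparisons, and the error bars of the 5 keratins and Col1a1 are wider than theirs. Where a spleen group was at 0 the difference is no fold.

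Of the 8 chains of basement membrane and network collagens, 0, 2 and 3 were called higher in B6 graft CD49b+, graft CD49a+ and recipient skin. In the F1 comparisons 1, 1 and 4 were. Of all rows, 3.7, 12.5 and 17.9 percent were called higher in B6 and 10.6, 18.5 and 11.3 percent in F1. Col4a1, a main chain of vessel and skin basement membranes, was called in B6 graft CD49a+ (85.9, 1.63 and 62.2, 4.20 ± 1.38, adjusted p = 0.0377), B6 recipient skin (63.5, 7.43 and 31.6, 4.30 ± 1.38, adjusted p = 0.0221) and F1 graft CD49b+ (10.7, 227 and 7.65, spleen at 0, adjusted p = 0.023). Of the 18 skin libraries 17 lay above the circulating maximum of 0.804. Col4a1 and its partner Col4a2 overlap on opposite strands in the annotation. Each of the 3 Col4a1 calls was lost without at least 4 of the 6 libraries in turn (adjusted p of 0.0543 to 0.182). Col4a2 was called in both recipient skins, Col4a6 in that of B6, and Col4a4 and Col4a5 in that of F1. Each of these calls was lost without at least 4 of the 6 libraries in turn (0.052 to 0.235).

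Col8a1, a short network-forming chain, was at 24.7, 407 and 7.21 in B6 graft CD49a+, and Col17a1, the transmembrane collagen of the hemidesmosomes of basal keratinocytes, at 158, 89.0 and 33.6. Their calls there (4.98 ± 1.09, adjusted p = 0.00416, and 5.65 ± 1.21, adjusted p = 0.00366) held without any 1 library. Col8a1 was also called in F1 graft CD49a+, a call lost without graft library 3 (0.0616), and in F1 recipient skin, a call lost without library 1 (0.064) or 2 (0.238) or any spleen library (0.0898 to 0.0964). Library 2 of B6 graft CD49a+, at 0 for Krt14, Krt5, Krt79 and Col1a1, held Col17a1 at 89.0 and Col8a1 at its highest value. Col17a1 was at 17.2, 2.67 and 0 in B6 recipient skin, and the graft and recipient CD49a+ groups did not overlap, but the difference of 4.29 ± 1.21 was not called (adjusted p = 0.135).

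Among transmembrane and other chains, Col25a1, known from neurons and muscle innervation, lay above the circulating maximum of 2.85 in 16 of 18 skin libraries. It was called in 4 comparisons, B6 recipient skin (3.00, adjusted p = 0.0156), F1 graft CD49b+ (3.17, 0.0218), F1 graft CD49a+ (4.10, 0.00255) and F1 recipient skin (2.74, 0.0372), with SE 0.90. The F1 graft CD49a+ call, at 11.54, 11.55 and 60.7, held without any 1 library, and the other 3 were each lost without at least 4 of the 6 libraries in turn (0.0547 to 0.139). Col28a1, known from peripheral nerve, was called in both F1 graft groups, whose spleen was at 0 (adjusted p of 0.0083 for CD49b+ and 0.0137 for CD49a+), and the CD49b+ call was lost without graft library 2 (0.0742). Col26a1 had a floor in every library, at 9.37 to 30.3 in circulating and 4.43 to 317 in skin libraries, and was not called.

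Other signals came from single libraries. Col6a6, a beaded-filament collagen chain, was at 1968 in F1 graft CD49b+ 1, which held 90.8 percent of its summed skin signal, and its other high values were 290 in F1 spleen 2, 162 in B6 recipient skin 3 and 144 in B6 spleen 1. Col18a1, whose product yields endostatin, was at 1510 in B6 graft CD49b+ 3, 810 in B6 graft CD49a+ 1 and 260 in F1 blood 3. Neither was called in any comparison. Of the 41 collagens 24 lay above all circulating libraries in 9 or more skin libraries and 12 did so in 3 or fewer, and of the 16 keratins 10 and 4. The same count was not made over all rows, and members that met the rule only through skin had to differ. These counts therefore describe the members and are no result about them.

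Set against each other, the skin groups gave no member a call. Graft CD49a+ against graft CD49b+ called 0 members in B6 (4 at an unadjusted p under 0.05) and 0 in F1 (0 unadjusted), beside 0.0125 and 0.00623 percent of all rows by limma. Graft CD49a+ against recipient skin CD49a+ called 0 in B6 (4 unadjusted) and 0 in F1 (3 unadjusted), beside 0.224 percent (0.193 higher in the graft and 0.0312 lower) and 0.0249 percent (0.0187 and 0.00623). Spleen against blood called 0 in B6 (0 unadjusted) and 0 in F1 (1 unadjusted), beside 0.00623 percent in each. The difference between the models was called for 0 members in each of the 3 skin comparisons (3, 5 and 3 unadjusted for graft CD49b+, graft CD49a+ and recipient skin), beside 0, 0.00623 and 0.0125 percent of all rows.

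For Krt79, Krt5 and Krt14 the model differences were wide. The F1 minus B6 difference in graft CD49b+ was -5.94 ± 2.10 for Krt79, -3.94 ± 2.34 for Krt5 and -3.65 ± 2.72 for Krt14. Each had an adjusted p of 1 in limma. For Col22a1 and Col11a1 this F1 minus B6 difference was 1.46 ± 1.19 and 0.10 ± 1.06. Leaving out B6 graft CD49a+ 2 gave 3 member calls in B6 graft against recipient skin, beside 142 of all 16045 rows. It gave 1 in B6 graft CD49a+ against CD49b+, beside 113 rows. Leaving out B6 recipient skin 2 gave 1 in B6 graft against recipient skin, beside 1016 rows. Leaving out F1 recipient skin 3 gave 1 in F1 graft against recipient skin, beside 60 rows.

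Genes that work with keratins and collagens were read beside them. Of 36 keratinocyte genes without keratins (such as Dsp and Perp of desmosomes) 8 to 12 had a signal of 10 or more in circulating and 9 to 30 in skin libraries, with sums of 550 to 1822 and 536 to 4094. Of the 31 tested, 4, 12 and 8 were called higher in the B6 comparisons of graft CD49b+, graft CD49a+ and recipient skin and 3, 5 and 8 in the F1 ones, and 1 was lower in F1 graft CD49b+ and 1 in F1 recipient skin. The shares of all rows called higher in these comparisons were 3.7, 12.5, 17.9, 10.6, 18.5 and 11.3 percent, which also stand beside the 2 lists that follow. Dsc3, a desmosomal cadherin, was called in all 6, at 4.70, 4.82 and 3.82 with B6 recipients and 3.25, 3.47 and 3.17 with F1 recipients. Defining genes of the cornified layer were at or near 0: Lor had a mean of 0.136 over skin libraries, Ivl 2.51 and Krtdap 4.10.

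Of 20 fibroblast genes without collagens (such as Dcn and Postn) 0 to 5 had a signal of 10 or more in circulating and 2 to 16 in skin libraries, with sums of 12.02 to 436 and 81.1 to 2614. Of the 18 tested, 5, 8 and 3 were called higher in B6 and 1, 6 and 5 in F1, with none lower. Dcn, a proteoglycan that binds collagen fibrils, was called in B6 graft CD49b+ (5.07), B6 graft CD49a+ (5.76) and F1 graft CD49a+ (4.41). Of 27 tested genes of collagen processing, 2, 8 and 9 were called higher in B6 and 1, 7 and 4 in F1. Adamts2, which trims procollagen, was called in all 6, at 3.12, 3.82 and 4.48 for B6 and 3.14, 3.92 and 3.12 for F1. Adamts14, a relative of it, was called lower in 5, by -3.64 (CD49a+ graft) and -5.22 (recipient skin) for B6 and by -2.39, -3.76 and -3.59 for F1. In those 5 comparisons 3.77, 11, 1.61, 4.18 and 4.44 percent of all rows were called lower. Numbers called lower are not given for this list. The fibroblast count of 16 was that of B6 graft CD49a+ 1 and 3, which had 10 and 11 keratins, and of B6 graft CD49b+ 1, which had the most collagens, while B6 graft CD49a+ 2 had 2 of 20. Of 10 endothelial genes 1 to 3 and 2 to 10 had a signal of 10 or more in circulating and skin libraries.

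The part that these cell types, the leukocyte level or depth have in the keratin and collagen signal was not tested. Without the 6 libraries under 25 percent of the circulating pan-leukocyte level, a choice made after seeing the data, B6 graft CD49a+ and both recipient skins kept 1 library each, which is then assumed to vary like the other groups. In B6 graft CD49a+ the library kept, number 2, was listed at 0 for Krt5, Krt15, Krt79, Col1a1 and Col3a1. Their differences from spleen could then only be 0 or negative, so the signs carry no information. They were -0.15 for Krt5, -0.12 for Krt15, -0.43 for Krt79, -0.36 for Col1a1 and -0.66 for Col3a1. The difference for Col22a1 was 4.39 in B6 recipient skin, and in F1 recipient skin those for Col22a1 and Col11a1 were 4.71 and 4.74. No library of B6 graft CD49b+ was left out. Counts of members called in this fit are not read, as some groups held 1 library.

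Per kilobase of exon, mean signal over the 18 skin libraries was highest for Krt14 (78.8), Krt17 (63.6) and Krt5 (34.7), followed by Col22a1 (21.3), Col3a1 (20.7), Krt26 (20.7), Col18a1 (19.9) and Krt79 (19.6). Col1a1 stood at 15.2, Col12a1 at 4.92, Krt7 at 4.67 and Col11a1 at 1.62. Many of these means rest on few libraries. B6 graft CD49a+ 1 alone held 40.3 percent of the skin sum of Krt14, 52.1 percent of that of Krt17, 58.6 percent of that of Krt5, 55.7 percent of that of Col3a1 and 25.8 percent of that of Krt26, and B6 graft CD49b+ 3 held 60.1 percent of that of Col18a1. For Col22a1 the library with the largest share, B6 graft CD49b+ 1, held 16.5 percent.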

How the data were processed

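RNA was sequenced from 30 libraries of sorted mouse NK cells. The deposited table holds signal: values the authors normalized with DESeq2 after Salmon quantification on GRCm38/mm10, per the submitters' processing notes, with versions, annotation and strand use not given in the sources used here. Of 30616 rows 30587 were used (1 had no name, 27 had symbols turned into dates, 1 was not numeric), and 2 unnamed columns were not used here. Low values were not whole multiples of a step, so reads were not recovered and depth is unknown. Summed signal was 3502580 to 5717950 in circulating and 1529120 to 3988760 in skin libraries.

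limma 3.58.1 (R 4.3.3) was fitted to log2(signal + 1) with 10 group means, moderated by eBayes (trend, robust), with p-values adjusted by Benjamini-Hochberg over 16045 rows at 10 or more in 3 libraries; changes of low genes are understated on this scale. It was tested on simulated data. Named members were the 8 keratins and 8 collagens with the highest skin mean, the 3 with the highest circulating mean, and up to 3 per family and comparison with the smallest adjusted p under 0.05; other members named were chosen after their values were seen. Members and lists were chosen with earlier results of these data known. A list member was found under an older symbol in 7 cases. Sequences and positions come from GENCODE M21 on GRCm38. Libraries with the same number were not treated as pairs. Alternatives are given in the closing section. Python 3.11.15, numpy 2.4.6, pandas 2.3.3 and matplotlib 3.10.9 were used. Some sequences and genes are not reported here.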

Additional observations from a re-analysis of the deposited data

How the results depend on the processing

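Counts of members called moved with most settings, given here in the order B6 graft CD49b+, B6 graft CD49a+, B6 recipient skin, F1 graft CD49b+, F1 graft CD49a+ and F1 recipient skin, against spleen (6, 16, 15, 8, 10 and 12 as reported), where a count moved by over 1.5 times. Leaving out 1 library gave 0 to 16, 5 to 27, 5 to 26, 1 to 9, 6 to 11 and 4 to 14 against spleen. It gave 0 to 1 for B6 graft CD49a+ against CD49b+, 0 to 3 and 0 to 1 for B6 and F1 graft against recipient skin, and 0 to 0 elsewhere. Over all rows, 653, 2616, 4625, 1956, 3637 and 2524 were called against spleen in the main fit. Leaving out 1 library moved these to 62 to 2022, 954 to 3967, 2534 to 6861, 694 to 1274, 1811 to 3932 and 1159 to 4500. The highest B6 counts, of members and of all rows, came without the number 2 skin libraries. A pseudocount of 10 gave 2 in the first, 6 in the third and 2, 3 and 5 in F1, and 1 in F1 graft against recipient skin. No filter on low values gave 5 for F1 graft CD49b+ and 7 for F1 recipient skin. A filter of 50 gave 7 for B6 recipient skin and 3, 4 and 4 in F1. That filter took members out of the test, such as Col11a1 with a third-highest value of 35.6. Of 67 called differences 38 were still tested, and 33 of these stayed called. Quantile normalization gave 2 in the first, 5 in the third and 2, 6 and 4 in F1, and 1 in F1 graft against recipient skin. Over all rows it called 112, 1432, 599, 1227 and 734 higher in these comparisons with spleen and 28, 1764, 196, 727 and 601 lower. Equal totals gave 3 and blood as reference 10 for B6 graft CD49b+. With equal totals 293 of all rows were called higher and 132 lower in that comparison. Scaling to pan-leukocyte genes, which moved the median of all genes by 0.64 to 2.00 in the comparisons with spleen, gave 1, 35 and 32 in B6 and 27 for F1 recipient skin. On that scale 168, 6761, 5807 and 6727 of all rows were called higher in these comparisons. Library weights gave 27 and 30 in the B6 graft groups and 21, 22 and 19 in F1. A fit of the compared groups alone gave 3, 10 and 4 for B6, then 17, 20 and 6 for F1. Where no count over all rows stands beside it, a moved count was not compared with a shift of all rows. Such a count is no result about the members. Without the 6 libraries of low leukocyte level, chosen after seeing the data, some signs in B6 graft CD49a+ turned. They were those of Krt5 (-0.15), Krt15 (-0.12), Krt79 (-0.43), Col1a1 (-0.36) and Col3a1 (-0.66). The library kept there listed each of these genes at 0, so their differences from spleen could not be positive. With every row in the denominator, the collagen share was 0.00237 to 0.0137 percent in circulating libraries and 0.00991 to 0.200 percent in skin. The causes were not tested.

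Deviations of same-numbered libraries from their group means had correlations of -0.0549 to 0.411 in B6 and -0.27 to 0.0983 in F1. In B6, 6 of 30 same-numbered pairs were over 0.1, against 5 of 60 pairs of other numbers, which reached 0.2035. Some same-numbered B6 libraries thus deviated together, and whether libraries share animals is not settled by this. A replicate block gave 9, 20 and 16 for B6 and 11, 12 and 14 for F1, and of 67 called differences 65 stayed called and 2 did not.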
